A study of Mus musculus with 6 samples.

Results

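The 10 core circadian clock genes described here are Arntl, Clock, Per1, Per2, Per3, Cry1, Cry2, Nr1d1, Nr1d2 and Dbp, and they were taken by name from the 37620 genes counted in each sample. All 10 were found, and all 10 passed the filter on low counts that left 15056 genes for testing. The counts come from ribosome-bound mRNA of the mouse dentate gyrus, isolated by RiboTag, in which a haemagglutinin tag on the ribosomal protein RPL22 allows ribosomes of chosen cells to be pulled down with the mRNA they carry. By the study's account Gli1CreERT2 switches the tag on in radial-glial neural stem cells (RGLs) and in astrocytes, and RGL progeny from first divisions carry it too. Both genotypes carried Gli1CreERT2 and Rpl22HA f/+ and received tamoxifen, with 3 injections 12 hr apart at an age of 2 to 3 months, and were sampled 4 days after the last one.

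The 3 Klf9 +/+ samples had intact Klf9 alleles and the 3 Klf9 f/f samples had floxed alleles from which Cre removes exon 1. Each sample pooled 6 dentate gyri from 3 mice. Deletion depends on Cre activity in each Gli1-positive cell and was not complete, so a Klf9 f/f sample also holds mRNA from cells with an intact allele. The library names form 2 series. Series 1 holds replicates 1 and 2 of each genotype, and series 2 holds replicate 3 of each genotype. The labels do not say in what the series differ, and the hour of dissection, to which clock transcripts are sensitive, is not given in the sources used here. The colony was kept under 12 hr of light per day.

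The mammalian clock is a loop of transcription and translation. The heterodimer of ARNTL (also called BMAL1) and CLOCK activates genes through E-boxes, among them the Period and Cryptochrome genes, whose proteins return to the nucleus and inhibit the dimer. In an interlocked loop the nuclear receptors encoded by Nr1d1 and Nr1d2 (REV-ERB alpha and beta) repress Arntl, and Dbp, a PAR bZIP factor, carries the rhythm to genes with D-boxes. In tissues with a running clock, Arntl mRNA therefore peaks at a time of day when Dbp, Nr1d1 and the Period genes are low. Klf9 is itself under clock and glucocorticoid control in several tissues, and its protein binds GC-rich boxes.

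Reads on genes ranged from 52188635 to 66343759 in series 1 and from 21594714 to 27594529 in series 2. The series 1 numbers exceed the range of reads per sample stated in the study's methods. The smallest count behind any value of the 10 clock genes was 453 reads, for Clock in Klf9 f/f replicate 3. Reads that HTSeq could not assign to one gene made up 2.42 to 2.64% of all reads as ambiguous in series 1 and 1.35 to 1.38% in series 2. Reads on no annotated gene made up 6.33 to 7.66% in series 1 and 10.9 to 12.2% in series 2. Reads without a unique alignment made up 7.63 to 8.95% in series 1 and 13.0 to 13.6% in series 2. Klf9, the targeted gene, stood at 200.9, 203.9 and 139.0 counts per 1000000 reads (CPM) for Klf9 +/+, in the order of replicates 1 to 3, against 114.3, 121.3 and 120.0 CPM for Klf9 f/f in the same order. The genotypes did not overlap (log2 fold change -0.59, SE 0.15, edgeR unadjusted p = 0.00319, adjusted p = 0.844). All 10 radial glia markers with an annotated row were detected in every sample, with a summed level of 5341 to 7723 CPM.

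Promoter windows were searched for short sequences that clock factors and other factors bind. Of the 10 clock genes, 9 have at least 1 entry in the RefSeq promoter set of build GRCm38.p6, with 13 start sites in all, each covering 250 bases before to 50 bases after a start. Both strands were searched. The E-box CACGTG stands in 2 of the 13 windows, those of Per1 and Cry1, against 7.15% of all 32851 promoters of this length. The variant E'-box CACGTT stands in 3 of 13, those of Cry1, Cry2 and Nr1d1, against 4.68%. A D-box (TTATGTAA or TTACGTAA) stands in the Per3 window alone among the 13, against 1.06% of all promoters, and the core AGGTCA that REV-ERB and ROR receptors bind stands in 4 of 13, against 16.3%. The GC box GGGCGG is in 11 of 13, which belong to 8 of the 9 genes, against 35.7%. Windows of the same gene can overlap, as those of Arntl do, and are then not separate matches. The set of all promoters was not matched to the clock genes for base content or level, and enrichment was not tested. The cyclic AMP response element TGACGTCA and the CACCC box CCACACCC are in 0 of 13, against 1.79% and 3.56% of all promoters. The E-box reads the same on both strands, no window position can match both it and the E'-box, and GC boxes that overlap each other were counted separately. A match is a description of letters in the window.

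The sequences of 4 clock genes and of Ciart, an E-box target of the same pathway, are given below as the 250 bases before the start, 5′ to 3′ on the gene's strand, with matches to the E-box, E'-box, D-box and the AGGTCA core in capitals and all else in lower case. They are shown because Per1 and Cry1 carry the E-boxes and kept their call between library series with an offset for exonic length, Nr1d1 carries an E'-box, Per3 carries the D-boxes, and Ciart holds 3 E-boxes and had a lower level in series 2. Their positions in GRCm38.p6 are chr11:69098699-69098948 (plus strand) for Per1, chr10:85185055-85185304 (minus strand) for Cry1, chr11:98775378-98775627 (minus strand) for Nr1d1, chr4:151044666-151044915 (minus strand) for Per3 and chr3:95882229-95882478 (minus strand) for Ciart.
Per1: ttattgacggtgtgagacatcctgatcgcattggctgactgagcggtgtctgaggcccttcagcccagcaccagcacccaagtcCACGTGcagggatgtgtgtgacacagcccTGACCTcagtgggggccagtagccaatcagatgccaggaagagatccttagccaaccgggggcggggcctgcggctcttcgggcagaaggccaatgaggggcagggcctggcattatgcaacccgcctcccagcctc
Cry1: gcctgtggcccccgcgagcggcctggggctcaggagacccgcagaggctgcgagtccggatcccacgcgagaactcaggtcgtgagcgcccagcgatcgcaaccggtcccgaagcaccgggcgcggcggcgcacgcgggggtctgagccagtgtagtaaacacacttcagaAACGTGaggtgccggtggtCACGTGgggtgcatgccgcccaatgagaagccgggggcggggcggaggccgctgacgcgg
Nr1d1: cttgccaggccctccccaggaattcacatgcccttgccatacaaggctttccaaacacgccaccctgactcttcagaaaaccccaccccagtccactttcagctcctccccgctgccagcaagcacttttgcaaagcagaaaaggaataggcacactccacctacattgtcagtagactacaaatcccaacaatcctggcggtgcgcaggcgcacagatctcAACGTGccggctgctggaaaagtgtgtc
Per3: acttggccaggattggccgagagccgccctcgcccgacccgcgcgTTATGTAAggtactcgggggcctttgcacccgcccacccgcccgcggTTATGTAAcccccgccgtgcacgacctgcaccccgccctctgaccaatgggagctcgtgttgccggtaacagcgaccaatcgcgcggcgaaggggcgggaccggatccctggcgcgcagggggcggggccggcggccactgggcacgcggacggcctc
Ciart: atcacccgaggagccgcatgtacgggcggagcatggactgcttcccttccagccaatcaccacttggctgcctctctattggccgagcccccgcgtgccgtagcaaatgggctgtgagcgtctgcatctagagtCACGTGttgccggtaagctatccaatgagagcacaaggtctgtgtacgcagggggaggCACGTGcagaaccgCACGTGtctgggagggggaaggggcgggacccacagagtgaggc
In this Per1 window the E-box begins 166 bases before the start and the AGGTCA core, read on the other strand, 137 bases before it. Cry1 has its E-box at 60 bases and its E'-box at 79 bases before the start. The single E'-box of Nr1d1 begins 28 bases before the start, the D-boxes of Per3 at 205 and 158 bases, and the E-boxes of Ciart at 116, 58 and 44 bases. The windows of Bhlhe41 and Tef, whose levels rose in series 2, also hold an E-box and are not shown. A link between matches and levels was not tested.

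Per length of exon, the clock genes spanned a wide range of levels. Levels are given as RPKM, the CPM divided by the exonic length in kilobases (mean ± SD over the 6 samples, n = 6). Dbp was highest at 38.6 ± 8.43 RPKM and Nr1d1 followed at 22.95 ± 4.18. Cry2, Nr1d2 and Cry1 lay at 13.4 ± 3.14, 13.2 ± 4.13 and 11.9 ± 2.74 RPKM, differences smaller than their spread. Arntl stood at 7.96 ± 0.708 RPKM, Per1 at 4.95 ± 1.45, Per3 at 3.36 ± 0.386, Per2 at 2.74 ± 0.892 and Clock at 2.22 ± 0.256. The ranges of Per1, Per3 and Per2 overlapped, as did those of Per2 and Clock and those of Arntl and Per1. Every clock gene was therefore read in the pull-down of every sample, with Dbp and the REV-ERB receptors above the Period genes and Clock. No input library is among the 6 samples, so mRNA not bound to tagged ribosomes could not be set apart.

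The first comparison asks whether clock mRNA on ribosomes differed between Klf9 f/f and Klf9 +/+. No difference was detected for any of the 10 clock genes. In the edgeR quasi-likelihood fit with the library series as a term, 0 of 10 passed the study's threshold of 1.2-fold with an unadjusted p under 0.05, against 4.32% of all genes tested, and 0 of 10 passed an unadjusted p under 0.05 at any fold. The edgeR likelihood-ratio test and DESeq2 also called 0 of 10. The median log2 fold change of the 10 was 0.08, beside 0.00 over all genes tested, and 7 of 10 were above 0. The 95% interval of the fold change ran from 0.890 to 1.304 for Cry2, the most precise of the 10, from 0.883 to 1.67 for Per2 and from 0.749 to 1.17 for Clock, so a change within a gene's own interval is not excluded by these 3 samples per genotype. In a RiboTag sample, fewer tagged cells and less mRNA per cell cannot be told apart.

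In the positive arm, Arntl (chr7:120350979-120457636 in build mm9, plus strand), which encodes the partner of CLOCK, was read at 20.6, 21.9 and 25.2 CPM in Klf9 +/+ against 24.7, 21.9 and 25.5 CPM in Klf9 f/f. Here and below the 3 values of a genotype stand in the order of replicates 1 to 3, the last being the series 2 sample. Clock (chr5:76639992-76733817, minus strand) was read at 18.2, 19.0 and 23.9 CPM in Klf9 +/+ against 19.1, 17.5 and 20.2 CPM in Klf9 f/f. Both genotypes overlapped for both genes. The log2 fold change, Klf9 f/f over Klf9 +/+, was 0.09 for Arntl (SE 0.14, 95% interval -0.22 to 0.40) and -0.09 for Clock (SE 0.14, -0.42 to 0.23).

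The Period genes encode inhibitors of the ARNTL and CLOCK dimer. Per1 (chr11:68908719-68923462, plus strand) was read at 25.0, 23.04 and 36.3 CPM in Klf9 +/+ against 20.9, 22.001 and 40.0 CPM in Klf9 f/f. In series 1 both Klf9 f/f samples lay below both Klf9 +/+ samples, and in series 2 the Klf9 f/f sample lay above. Its log2 fold change was -0.06 (SE 0.14, 95% interval -0.38 to 0.25). Per2 (chr1:93312561-93355907, minus strand) was read at 12.7, 10.5 and 20.6 CPM in Klf9 +/+ against 18.1, 11.3 and 22.8 CPM in Klf9 f/f, where replicate 1 stood apart from the other series 1 samples. Its log2 fold change of 0.28 (SE 0.20, -0.18 to 0.74) was the largest of the 10 and had the smallest p, unadjusted p = 0.201 in edgeR. It was 0.04 without Klf9 f/f replicate 1 and 0.44 without Klf9 f/f replicate 2. Per3 (chr4:150377761-150418774, minus strand) was read at 32.1, 27.6 and 37.7 CPM against 29.1, 32.1 and 35.0 CPM, overlapping values with a log2 fold change of -0.01 (SE 0.14, -0.32 to 0.30).

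The cryptochromes encode the partners of the PER proteins in inhibition. Cry1 (chr10:84594447-84647799, minus strand) was read at 30.4, 28.3 and 45.8 CPM in Klf9 +/+ against 36.8, 27.8 and 45.3 CPM in Klf9 f/f, and the genotypes overlapped. Cry2 (chr2:92243803-92274200, minus strand) was read at 69.9, 66.3 and 110.1 CPM in Klf9 +/+ against 77.5, 75.0 and 109.7 CPM in Klf9 f/f. Cry2 was higher in Klf9 f/f in series 1 without overlap and nearly equal in series 2. The log2 fold changes were 0.09 for Cry1 (SE 0.15, 95% interval -0.25 to 0.42) and 0.11 for Cry2 (SE 0.12, -0.17 to 0.38).

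Of the REV-ERB genes, which encode the repressors of Arntl, Nr1d1 (chr11:98629246-98636647, minus strand) was read at 67.1, 60.2 and 81.1 CPM in Klf9 +/+ against 67.8, 60.6 and 93.4 CPM in Klf9 f/f. In series 1 the genotypes were almost level. Nr1d2 (chr14:19036568-19071641, minus strand) was read at 47.5, 57.2 and 91.8 CPM in Klf9 +/+ against 73.0, 41.7 and 86.6 CPM in Klf9 f/f, and the 2 Klf9 f/f samples of series 1 enclosed both Klf9 +/+ samples. The log2 fold changes were 0.08 (SE 0.13, 95% interval -0.22 to 0.37) for Nr1d1 and 0.06 (SE 0.20, -0.40 to 0.52) for Nr1d2. Without Klf9 f/f replicate 1 the Nr1d2 value turned to -0.22, still short of the threshold.

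Dbp (chr7:52960458-52965525, plus strand), the D-box activator, was read at 117.3, 89.1 and 118.7 CPM in Klf9 +/+ against 104.5, 94.0 and 158.0 CPM in Klf9 f/f. The highest sample was Klf9 f/f replicate 3, and the series 1 samples of both genotypes overlapped. Its log2 fold change was 0.10 (SE 0.16, 95% interval -0.26 to 0.46). Counting did not use the strand, and exons of 3 clock genes overlap a gene on the other strand, Dbp with Sphk2 over 491 bp, Nr1d1 with Thra over 263 bp and Cry2 with D930015M05Rik over 295 bp, so these 3 levels are uncertain by reads from those stretches.

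**Figure D1:**
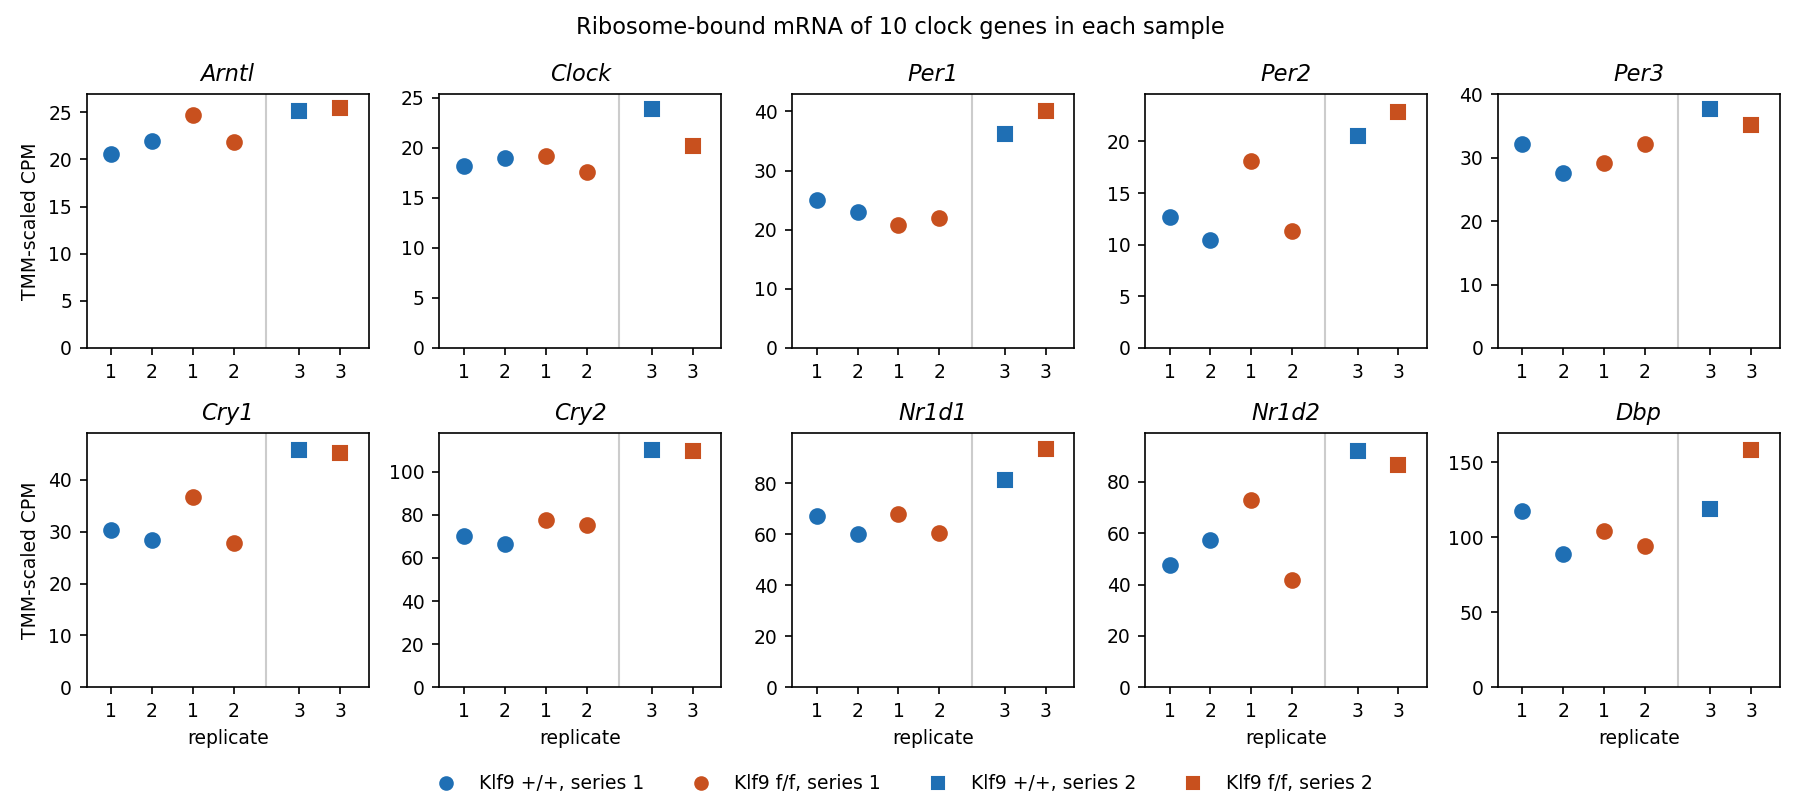
Level of each of the 10 clock genes in TMM-scaled CPM (vertical axis, from 0) in each sample, with points for single samples, Klf9 +/+ in blue and Klf9 f/f in orange, series 1 as circles left of the grey line and series 2 as squares right of it, labelled by replicate number. Blue and orange points mix within series 1 for most genes, and both squares stand above all 4 circles in each panel.

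Genotype was then read within each library series. For 0 of 10 clock genes were the Klf9 f/f samples above the Klf9 +/+ samples of their series in both series, against 7.78% of all genes tested, and for 0 of 10 were they below in both, against 5.53%. By sample order alone, Per1 and Cry2 separated the genotypes in opposite directions in the 2 series, which 9.94% of all genes also did. For Cry2 the series 2 samples were nearly equal, at 110.1 CPM in Klf9 +/+ and 109.7 CPM in Klf9 f/f. The difference of the genotype effect between series was tested as an interaction term. At an unadjusted p under 0.05, 0 of 10 clock genes passed in edgeR, as in the likelihood-ratio test and DESeq2, against 1.53% of all genes. The largest difference was that of Dbp, 0.47 on the log2 scale (SE 0.37, 95% interval -0.34 to 1.28, edgeR unadjusted p = 0.229). Per1 followed with 0.31 (SE 0.35, -0.47 to 1.09, edgeR unadjusted p = 0.405). Series 2 has 1 sample of each genotype, and these intervals are wide.

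By group means, markers of several cell types differed between the genotypes, but the summed levels given below overlapped. Astrocytes and radial glia belong to the cells that Gli1CreERT2 targets, and the other types below are not named among them. By group means, 12 of 12 astrocyte markers stood higher in the Klf9 f/f samples, their sum being 10188 to 13878 CPM in Klf9 +/+ and 13716 to 15455 CPM in Klf9 f/f. By the same measure 0 of 10 choroid plexus markers (265 to 4096 CPM against 109 to 776 CPM), 0 of 9 endothelial markers (147 to 378 CPM against 58.0 to 239 CPM) and 0 of 9 mural and meningeal markers (778 to 1463 CPM against 423 to 901 CPM) were higher in Klf9 f/f. The 4096 CPM of choroid plexus markers was that of Klf9 +/+ replicate 3. In the remaining lists, 7 of 10 radial glia, 6 of 9 granule neuron, 6 of 8 microglia and 4 of 8 oligodendrocyte markers were higher in Klf9 f/f. No marker of these lists was at 0 in any sample. Their part in the clock genes' values was not tested.

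The second comparison asks how the clock genes differed between the library series. All 10 clock genes were higher in series 2. In each of the 10, both series 2 samples stood above all 4 series 1 samples, an arrangement that 25.5% of all genes tested also had. At an adjusted p under 0.05, 6 of 10 rose and 0 fell, where 12.9% of all genes rose and 16.6% fell. The median log2 difference, series 2 over series 1, was 0.51 for the 10 clock genes and 0.03 for all genes tested. This comparison sets 2 samples against 4, one of each genotype in series 2, and what else separated the series cannot be told apart from it.

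The genes that rose at an adjusted p under 0.05 were Period, Cryptochrome and REV-ERB genes. Per1 rose by 0.75 on the log2 scale (SE 0.14, edgeR adjusted p = 0.00721), Per2 by 0.73 (SE 0.21, adjusted p = 0.0309), Cry2 by 0.61 (SE 0.13, adjusted p = 0.00938) and Cry1 by 0.57 (SE 0.15, adjusted p = 0.0249). Both REV-ERB genes rose, Nr1d2 by 0.70 (SE 0.21, edgeR adjusted p = 0.0350) and Nr1d1 by 0.45 (SE 0.14, adjusted p = 0.0365). Of the other 4, Dbp differed by 0.44 (SE 0.17, 95% interval 0.06 to 0.82, edgeR adjusted p = 0.0753), Per3 by 0.27 (SE 0.14, -0.06 to 0.59, adjusted p = 0.184), Clock by 0.25 (SE 0.15, -0.09 to 0.59, adjusted p = 0.230) and Arntl by 0.19 (SE 0.15, -0.14 to 0.52, adjusted p = 0.353). At the study's threshold Dbp passed as well, giving 7 of 10, against 20.7% of all genes that rose at that threshold.

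**Figure D2:**
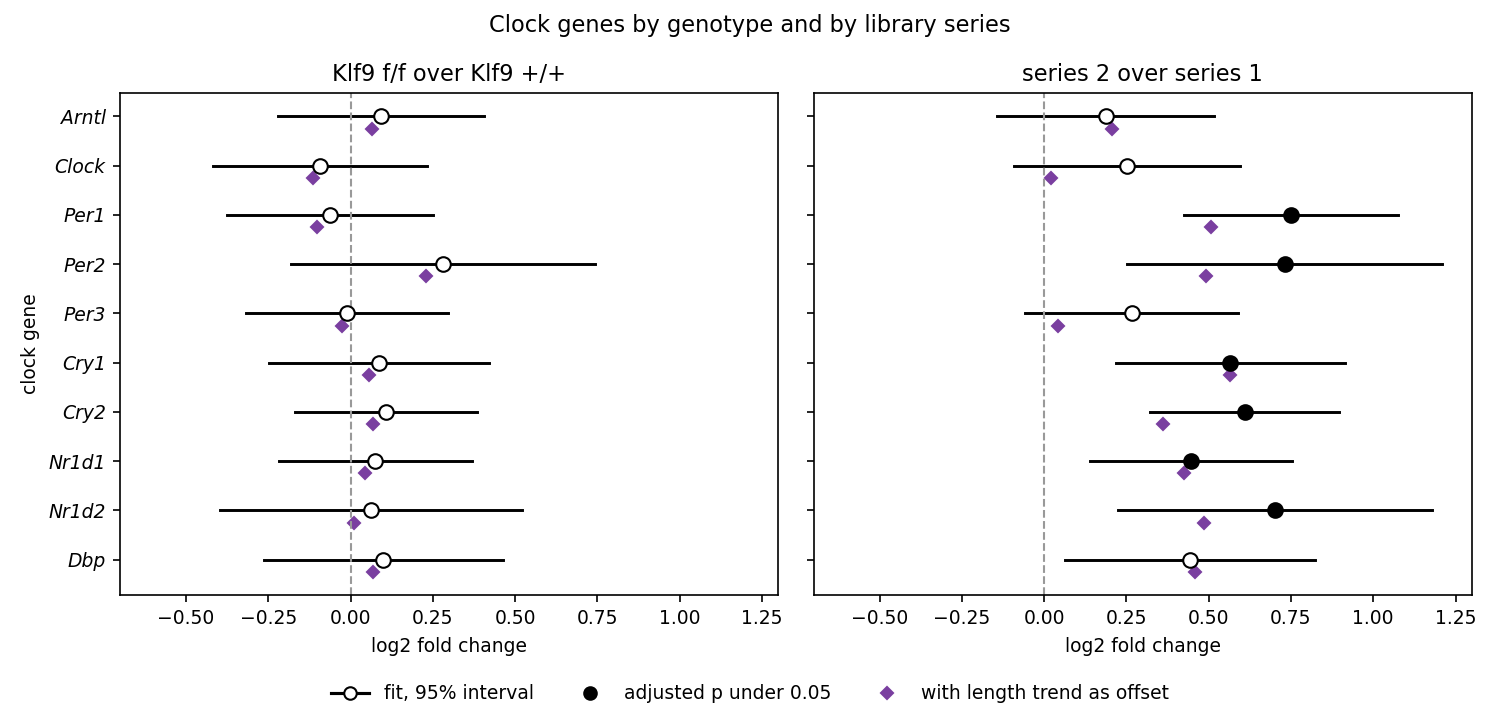
Log2 fold change (horizontal axis) of each clock gene by genotype on the left and by library series on the right, with points for the edgeR fit, filled where the adjusted p is under 0.05, bars for the 95% interval and diamonds for the fit with the exonic length trend as an offset. On the left all 10 bars cross 0, and on the right 6 points are filled and the diamonds of Clock and Per3 lie near 0.

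The series also differed in measures that do not concern the clock. Genes shorter than every clock gene, under 2925 bp of exon, had a median log2 difference of -0.39 between the series (5783 genes, of which 4.77% rose and 32.4% fell), while the 4418 genes within the clock genes' range of exonic length and mean CPM had a median of 0.20, with 21.0% risen and 7.61% fallen. With a trend of log2 CPM on exonic length fitted in each sample and used as an offset, an alternative chosen after seeing the data, 2 of 10 clock genes rose, against 7.16% of all genes. They were Per1, by 0.51 (SE 0.14, edgeR adjusted p = 0.0494), and Cry1, by 0.57 (SE 0.15, adjusted p = 0.0388). Clock and Per3, the longest of the 10, moved to 0.02 and 0.04 under that offset, while the values of Arntl (0.21), Nr1d1 (0.42) and Dbp (0.46), among the shortest, stayed close to those without it.

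The count of 6 rests on few libraries. Without Klf9 +/+ replicate 3 and without Klf9 f/f replicate 3, fits in which the single remaining series 2 sample is assumed to vary like the others, 0 of 10 clock genes passed, and the share of all genes that rose was 0.339% and 1.89%. Without Klf9 +/+ replicate 2 the count was 3, against 12.1% of all genes, and without Klf9 f/f replicate 2 it was 2, against 7.82%. All 10 clock genes stayed above the median of all genes in each of these fits. With the length offset 9 of 10 lay above that median. Without TMM scaling the median log2 difference of all genes moved from 0.03 to 0.19 and the share of calls that rose from 43.8% to 63.3%, and Dbp joined the clock genes that passed. The clock genes shifted with the table, Clock for example from 0.25 to 0.41, and the count at the study's threshold went from 7 to 9.

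Cell type markers differed between the library series too. By group means 10 of 10 choroid plexus markers were higher in series 2, with a summed level of 109 to 990 CPM in series 1 and 776 to 4096 CPM in series 2, and so were 8 of 9 mural and meningeal markers (423 to 981 CPM against 747 to 1463 CPM). Granule neuron markers summed to 1258 to 1403 CPM in series 1 and 1125 to 1143 CPM in series 2, with 4 of 9 higher in series 2. Astrocyte markers overlapped between the series. The part of these markers, of depth and of the shares of reads not assigned to a gene in the clock genes' series difference was not tested.

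Across the 6 samples the clock genes did not show opposed arms. Arntl varied least, with its highest sample 1.24 times its lowest, against 1.36 for Clock and Per3 and 2.18 and 2.20 for Per2 and Nr1d2. Arntl was highest in both series 2 samples, where the Period, REV-ERB and Dbp transcripts were also highest. The mean log2 CPM of Per1, Per2, Per3, Nr1d1, Nr1d2 and Dbp exceeded that of Arntl by 0.94, 0.70 and 1.10 in the Klf9 +/+ samples and by 0.77, 0.69 and 1.204 in the Klf9 f/f samples, on the log2 scale. The gap was thus wider in both series 2 samples than in any series 1 sample. Per1, Per2, Per3 and Nr1d2 have 5009 to 9608 bp of exon, against 2925 bp for Arntl, and the series differed by exonic length. With the length offset their series values were 0.51, 0.49, 0.04 and 0.49, against 0.21 for Arntl, 0.42 for Nr1d1 and 0.46 for Dbp. The part of length in the gap was not tested. The ratio of Dbp to Arntl in CPM was 5.69, 4.06 and 4.71 in Klf9 +/+ and 4.23, 4.30 and 6.20 in Klf9 f/f, values that overlapped between the series and between the genotypes.

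Within series 1 the clock genes were spread by factors of 1.09 for Clock to 1.75 for Nr1d2. Klf9 f/f replicate 1 was the highest of the 4 series 1 samples for 7 of 10 clock genes, a place it held for 29.9% of all genes. Klf9 +/+ replicate 1 was highest for the other 3, Per1, Per3 and Dbp, as for 25.3% of all genes. Per2 and Nr1d2 were 1.73 and 1.75 times as high in the highest as in the lowest series 1 sample, and no other clock gene passed 1.32. The 3 Period genes did not share one order across the 4 samples.

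The other clock pathway genes, 27 of 27 of which were tested, gave a similar picture by genotype. At the study's threshold 0 of 27 passed, by edgeR, the likelihood-ratio test and DESeq2 alike, and 0 passed an unadjusted p under 0.05 in edgeR. The median log2 fold change was 0.06. Fbxl21, which encodes an F-box protein that binds cryptochromes, had the largest value, 0.66 (SE 0.35, 95% interval -0.13 to 1.45, edgeR unadjusted p = 0.0901), at 0.970, 1.46 and 0.751 CPM in Klf9 +/+ and 1.54, 2.15 and 1.34 CPM in Klf9 f/f. Within each series Klf9 f/f was above Klf9 +/+ without overlap, at very low levels. That arrangement held for 3 of the 27, against 7.78% of all genes. Over all 6 samples the genotypes overlapped for Fbxl21.

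Usp2, a deubiquitinase that acts on clock proteins, was read at 116.9, 113.4 and 112.0 CPM in Klf9 +/+ against 130.5, 133.2 and 122.6 CPM in Klf9 f/f. Btrc, a subunit of a ubiquitin ligase that recognises PER proteins, was read at 65.0, 68.6 and 68.9 CPM in Klf9 +/+ against 80.4, 72.2 and 70.4 CPM in Klf9 f/f. For these 2 of 27 all 3 Klf9 f/f samples stood above all 3 Klf9 +/+ samples, which 2.03% of all genes also did. The log2 fold changes were 0.17 for Usp2 (SE 0.12, 95% interval -0.09 to 0.44) and 0.14 for Btrc (SE 0.13, -0.15 to 0.42), and neither passed the test. Rorb passed the study's threshold only in the fit without Klf9 f/f replicate 2.

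Between the series, 7 of the 27 pathway genes rose and 2 fell at an adjusted p under 0.05, against 12.9% and 16.6% of all genes. Of the E-box repressors, Bhlhe41 (DEC2) rose most, by 1.29 (SE 0.18, edgeR adjusted p = 0.00384), from 28.4, 18.5, 25.0 and 22.9 CPM in the series 1 samples to 55.5 CPM in Klf9 +/+ replicate 3 and 60.4 CPM in Klf9 f/f replicate 3. Ciart, a repressor of the ARNTL and CLOCK dimer, fell by 0.55 (SE 0.17, edgeR adjusted p = 0.0354), from 30.9, 25.4, 25.9 and 31.0 CPM to 18.0 and 20.7 CPM. Bhlhe40 differed by 0.35 (SE 0.14, edgeR adjusted p = 0.0952). The call for Ciart was lost with upper-quartile scaling (-0.49), without scaling (-0.39), with the length offset (-0.35) and without any one of Klf9 +/+ replicates 1 and 3 and Klf9 f/f replicates 2 and 3 (-0.64 to -0.43).

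Npas2, a relative of Clock, rose by 0.95 (SE 0.31, edgeR adjusted p = 0.0449), while its list partner Arntl2 had a value of -0.14 (SE 0.32). Among the ROR receptors, which activate Arntl, Rorb rose by 0.98 (SE 0.20, edgeR adjusted p = 0.00865), and Rora had a value of 0.16 (SE 0.13) that did not pass. The PAR bZIP factors Tef and Hlf, relatives of Dbp, rose by 0.66 (SE 0.13, edgeR adjusted p = 0.00842) and 0.59 (SE 0.14, adjusted p = 0.0146), and their antagonist Nfil3 had a value of 0.30 (SE 0.21).

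Of the kinases that phosphorylate PER and CRY proteins, Gsk3b rose by 0.76 (SE 0.17, edgeR adjusted p = 0.0133), while Csnk1d, Csnk1e and Csnk1a1 had values of 0.33, -0.13 and -0.14 that did not pass. In the ubiquitin group Fbxw11 rose by 0.52 (SE 0.16, edgeR adjusted p = 0.0409) and the other 4 did not pass. Of the PER and CRY partners, Tipin, which works with Timeless at replication forks, fell by 0.89 (SE 0.15, edgeR adjusted p = 0.00508), and Timeless, Nono and Sfpq did not pass. The outputs Wee1, Nampt and Klf10 had values of 0.21, 0.20 and 0.44 that did not pass. Tipin and Ciart, with 1211 and 2261 bp of exon, are both shorter than every one of the 10 clock genes. So are Wee1 (1941 bp) and Nfil3 (2026 bp), whose values of 0.21 and 0.30 were above 0 and did not pass. With the length trend as an offset, 3 of the 27 rose, namely Rorb, Bhlhe41 and Tef, against 7.16% of all genes, and Tipin and Ciart had values of -0.25 and -0.35. Without Klf9 +/+ replicate 3, 0 of the 27 passed, and without Klf9 f/f replicate 3 Bhlhe41 alone did.

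**Figure D3:**
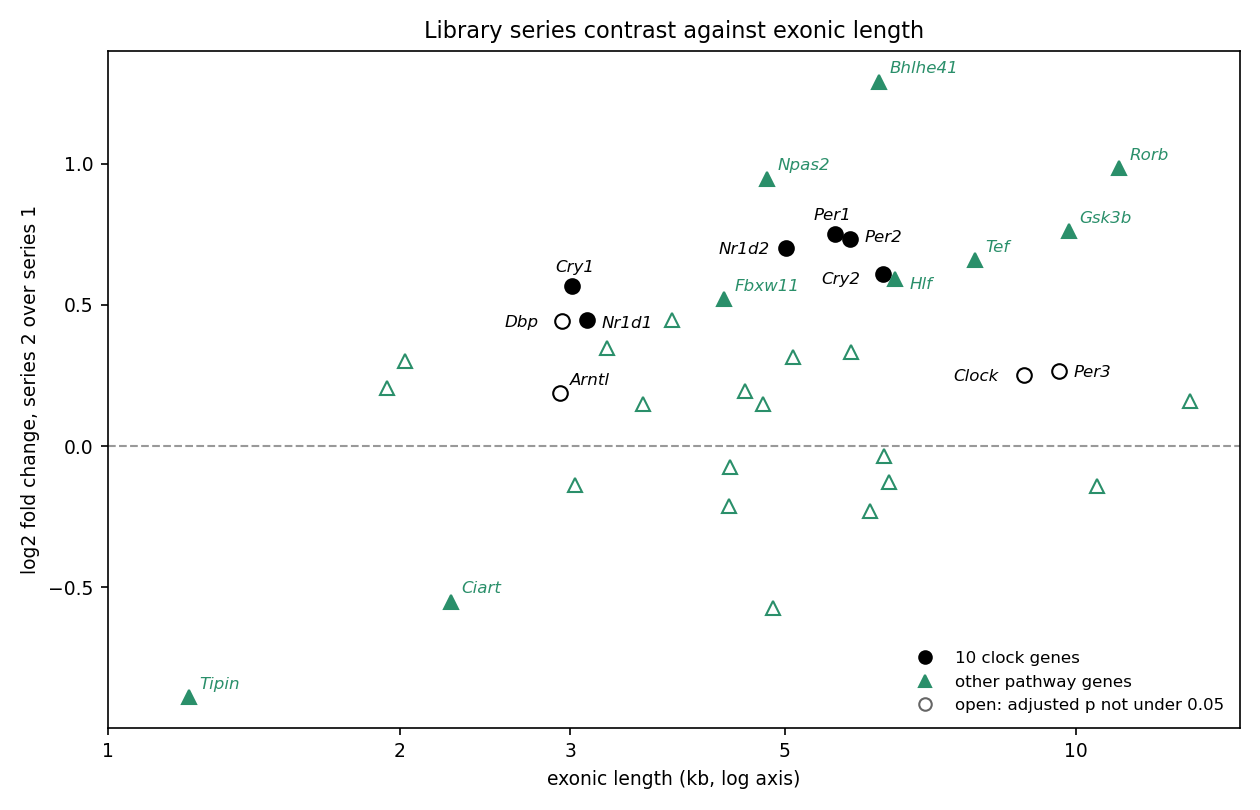
Log2 fold change of series 2 over series 1 (vertical axis) against exonic length in kb (horizontal log axis) for the 10 clock genes as black circles and the 27 other pathway genes as green triangles, filled where the adjusted p is under 0.05. All 10 circles lie above 0, and both pathway genes that fell, Tipin and Ciart, are shorter than all circles. Wee1 and Nfil3, open triangles above 0, are also shorter than all circles.

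A pair of lists of genes that respond to hormones or to activity gave counts for comparison. Of 12 glucocorticoid response genes, 3 rose by genotype at the study's threshold and 0 fell, against 1.82% and 2.50% of all genes. They were Pdk4, Ddit4 and Klf15, named after their values were seen, with log2 fold changes of 0.50, 0.30 and 0.30. By genotype 5 of the 12 values were above 0 and 7 below, with a median of -0.02, so the list as a whole did not rise. At an adjusted p under 0.05 in edgeR, 0 of 12 passed. Between the series 2 of the 12 rose, Ddit4 by 1.24 and Fkbp5 by 0.60, and Sult1a1 fell by 0.91 at an adjusted p under 0.05, shares near or below the 12.9% and 16.6% of all genes. Of 12 immediate early genes 10 were tested. By genotype 0 of the 10 passed an unadjusted p under 0.05 in edgeR, and by series 0 passed an adjusted p under 0.05 and Egr3 passed an unadjusted one, with a value of 0.91.

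The genes whose course over the 6 samples was most like that of Dbp, by the root mean square difference of centred log2 CPM, were Nlgn3 (0.02), Ltbr (0.04) and Gli2 (0.06), where Dbp itself deviated by 0.27 from its mean. For Arntl they were Acadvl (0.02), Gpsm2 (0.03) and Ttc13 (0.03), where Arntl deviated by 0.12. No clock or pathway gene could enter this ranking. Over 6 samples such likeness is common, since 234 tested genes lay within 0.15 of Dbp and 1962 within 0.15 of Arntl, a limit chosen after seeing the data.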

How the data were processed

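Ribosome-bound mRNA was sequenced in 3 Klf9 +/+ and 3 Klf9 f/f samples. By the study's methods the authors mapped 50 bp reads with STAR to mm9 and counted them without strand in HTSeq, and the deposited values are raw counts per gene, not normalized. HTSeq summary lines, 16.4 to 26.6% of all reads, were left out. Of 37620 genes, 37205 were named from GENCODE M1 and 415 kept their identifiers. Genotypes came from the labels and the 2 library series from the library names. The filter kept genes that exceeded 1 CPM in 1 or more samples. TMM factors, glmQLFit and then glmQLFTest were run in edgeR 4.0.16 (R 4.3.3), with genotype and series as terms and Benjamini-Hochberg adjustment over the 15056 genes tested. DESeq2 1.42.0 was an alternative. Log2 CPM used a prior count of 2. RPKM divided TMM-scaled CPM by exonic length. The code was tested on simulated data. Each replicate is a pool of mice, and p-values measure the spread between these pools.

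Named were all 10 clock genes, Klf9, 27 other pathway genes (the values of 1 of them are not reported here), and the 3 genes nearest to Dbp and to Arntl in course. The members and lists were chosen with earlier results of these data known. Other processing choices tried were a likelihood-ratio test, other scalings and filters, fits without the series term or in series 1 alone, and leaving out each sample.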

Additional observations from a re-analysis of the deposited data

How the results depend on the processing

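No paired analysis was possible because the labels carry no replicate numbers, and those used here follow the order of deposit and only name samples. The library series enters the fit as a term. By genotype the count of clock genes called stayed at 0 under every alternative run, and by interaction likewise in the fits that kept both genotypes in both series. By series the count at an adjusted p under 0.05 was 6, ranged from 0 to 6 when single samples were left out, was 7 in a fit without scaling and also in one without a filter, and fell to 2 with the length offset, an alternative chosen after seeing the data. At the study's threshold the series count was 7 and ranged from 4 to 7 without single samples, with 7 under the length offset and 9 without scaling. Pathway genes called by genotype ranged from 0 to 1, and by series from 0 to 9, with 3 under the length offset. The fit has 3 residual degrees of freedom.

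Signs turned in 15 cases, none of which passed the threshold. In series 1 alone the genotype value of Per3 came to 0.029 and that of Dbp to -0.062. When single samples were left out, genotype values ranged from -0.170 to 0.00023 for Per1, from 0.044 to 0.439 for Per2 (which kept its sign), from -0.087 to 0.040 for Per3, from -0.054 to 0.180 for Cry1, from -0.222 to 0.243 for Nr1d2 and from -0.062 to 0.265 for Dbp. Interaction values ranged from -0.493 to 0.191 for Per2, from -0.342 to 0.063 for Cry1 and from -0.563 to 0.243 for Nr1d2. Among these, Per3 came to 0.028 without Klf9 +/+ replicate 3, 0.016 without Klf9 f/f replicate 1 and 0.035 without Klf9 f/f replicate 3, Nr1d2 to -0.033 without Klf9 +/+ replicate 1, and Dbp to -0.056 without Klf9 f/f replicate 3. The cause of these changes was not tested. Among single genes 449 values kept their direction and their side of the threshold, 55 fell short of it under an alternative and 3, all for Dbp by series, came to pass it.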
